A study of Homo sapiens with 24 samples.

Results

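The comparison described here was HepG2 cells carrying the second KEAP1 guide against HepG2 cells carrying the control guide, both with TFEB and TFE3 left intact. It took the 4 libraries of siNC; sgKeap1-2 and the 4 libraries of siNC; sgCtrl, which are 8 of the 24 libraries of the series, and was read across all genes with an Entrez ID. Those genes formed 11927 features, of which 11152 passed the filter on low counts and were tested. HepG2 is an established human liver cancer cell line. In both groups it had been transduced with lentiCRISPRv2, a lentiviral vector that delivers Cas9 with a guide RNA, and selected with puromycin. sgKeap1-2 directs Cas9 to KEAP1, and sgCtrl directs it to the AAVS1 safe-harbour site. Both groups also received siNC, a pool of non-targeting siRNAs, and RNA was taken 72 h after transfection. The study's methods name no cloning step after selection, so each group is a transduced population in which edited and unedited cells cannot be told apart. RNA was measured with QuantSeq, a 3′ mRNA-Seq kit, whose reads fall near the polyadenylated end of a transcript.

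KEAP1 is the substrate adaptor of a ubiquitin ligase that marks the transcription factor NRF2, encoded by NFE2L2, for degradation. NRF2 is short-lived while KEAP1 is active. When KEAP1 is lost, mutated or inactivated by reactive compounds, NRF2 accumulates and, with a small MAF partner, switches on genes that carry antioxidant response elements. Its known targets supply glutathione, thioredoxin and NADPH and carry out the reduction, conjugation and export of toxic compounds in the liver.

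Total reads of the 8 libraries ranged from 3575348 to 4519858, and the share of reads without a gene ID from 1.35% to 2.05%. Exact permutation tests gave p = 0.8 for total reads and p = 0.514 for that share between the groups. The 10 most abundant genes took 7.03% ± 0.112 of the reads with sgKeap1-2 and 7.78% ± 0.269 with sgCtrl (SD, n = 4 each), with no overlap between the groups (exact permutation p = 0.0286, the smallest that 70 arrangements allow). Within each group every pair of libraries was further apart than sampling of reads alone gives, with a chi-square per degree of freedom of 3.59 to 13.2. The 3 pairs that held sgCtrl replicate 1 gave 7.44 to 13.2, whereas the other 3 sgCtrl pairs gave 4.15 to 4.66. Of the other 16 libraries, which entered the estimate of spread, replicate 1 of siNC; sgKeap1-1 and replicate 1 of sitfeb/sitfe3; sgKeap1-2 stood apart on the second principal component, at 61.2 and 44.3 where the rest lay between -13.2 and 6.28. The labels do not say that the 4 libraries of a group came from separate cultures. Their count columns carry 4 date-like prefixes, 1 for each replicate number and the same in all 6 groups, whose meaning is not given, so p-values measure only the spread between these libraries. Markers of the hepatocyte lineage were present in every library, at a summed level of 25492 to 34412 counts per 1000000 reads (CPM, on library sizes scaled by TMM) with sgCtrl and 15116 to 16098 CPM with sgKeap1-2. In bulk RNA, fewer cells of a type and less RNA per cell cannot be told apart. None of the 5 endothelial markers was in the table. Of 5 immune markers PTPRC and CD3E were not in it, and the other 3, CD68, CD14 and LYZ, summed to 1541 to 2815 CPM with sgCtrl and 1374 to 1646 CPM with sgKeap1-2. Nearly all of that was LYZ, which encodes lysozyme and fell by 0.58 log2 units (SE 0.18, limma adjusted p = 0.0307), with overlapping groups and no call in 6 of the 8 fits that left out 1 library (limma adjusted p 0.061 to 0.129).

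With sgKeap1-2, 845 genes rose and 796 fell at a limma-voom adjusted p under 0.05, which is 7.58% and 7.14% of the 11152 genes tested. The genes that rose moved further than those that fell. The median log2 fold change was 0.87 among the genes that rose and -0.73 among those that fell, 379 rose and 195 fell by at least 1 on the log2 scale, and 64 rose and 4 fell by at least 3. All 4 sgKeap1-2 libraries lay above all 4 sgCtrl libraries for 760 of the 845 genes and below them for 645 of the 796, where over all genes tested 11% and 9.28% did so. The median over all genes was -0.003. Without sgKeap1-2 replicate 2 the number of genes that fell was 522 and the number that rose 653, and without the 2 libraries that stood apart, neither of them in this comparison, 1194 rose and 1114 fell.

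**Figure D1:**
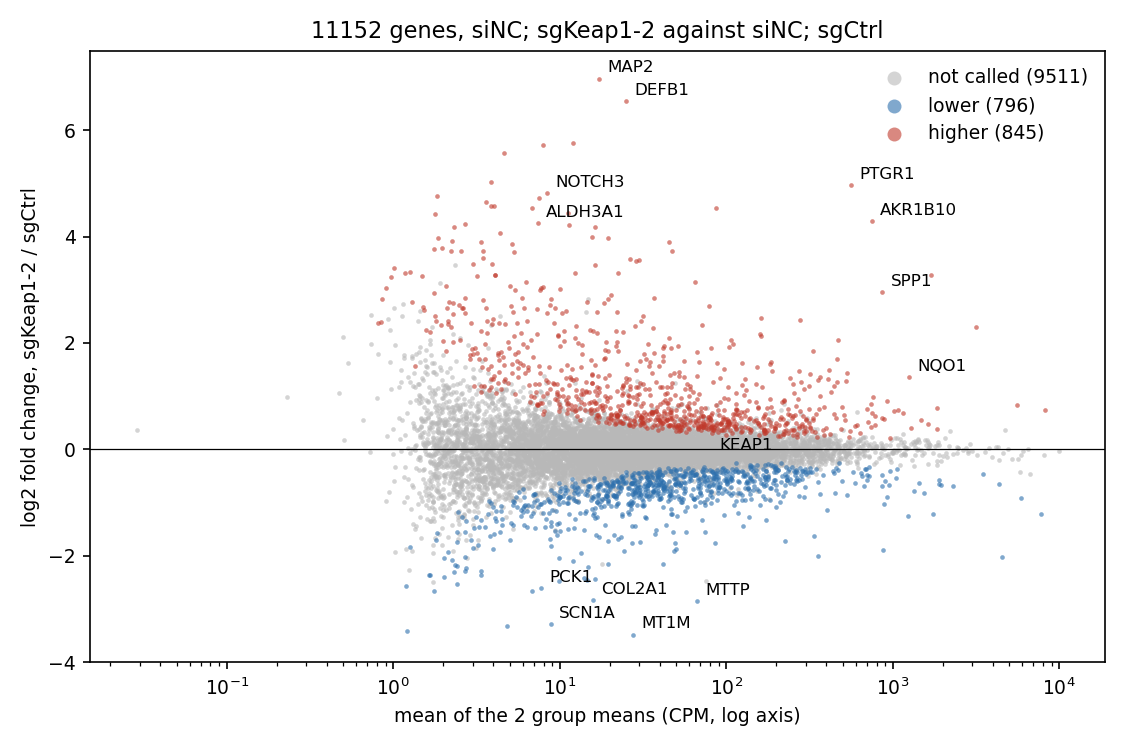
Each point is 1 of 11152 genes; the x axis gives the mean of the group means in CPM on a log axis and the y axis the log2 fold change of sgKeap1-2 over sgCtrl, both under siNC. Red points (845) were called higher and blue points (796) lower; the red points reach 6.97 and the blue points -3.48.

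The smallest change that was called differed with the count of a gene. Among the 2790 genes with the lowest mean counts 10.6% were called and the smallest called log2 change was 0.64, and among the 2785 with the highest counts 20% were called and the smallest was 0.22. The median standard error was 0.38 on the log2 scale in the former and 0.12 in the latter. Smaller changes of weakly expressed genes may have gone uncalled. The limit also moved with the libraries in the fit. At the same depth 1641 genes were called in all, and 2308 without the 2 libraries that stood apart.

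KEAP1 (chr19:10596801-10614234, GRCh37) was measured at 85.3, 83, 77.5 and 93.6 CPM in the 4 sgCtrl libraries and at 79.3, 81, 72.1 and 77.1 CPM in the 4 sgKeap1-2 libraries. The ranges overlapped, and the log2 fold change was -0.14 (SE 0.10, limma adjusted p = 0.448). A 3′ tag lies outside the site that Cas9 cuts, so an unchanged level of KEAP1 RNA does not show whether the gene was disrupted. With the other KEAP1 guide, sgKeap1-1, KEAP1 RNA was lower than with sgCtrl, at a log2 fold change of -0.66 (SE 0.11, limma adjusted p = 0.000102). From immunoblots of cells with either guide, the study reports a marked rise in NRF2. NFE2L2 RNA was likewise within the spread, at 256, 191, 248 and 199 CPM against 178, 188, 175 and 205 CPM and a log2 fold change of -0.25 (SE 0.14, limma adjusted p = 0.275). Of 13 genes of the KEAP1-NRF2 switch 3 rose and 0 fell. SQSTM1, the autophagy receptor p62 that binds KEAP1, went from 217, 301, 277 and 353 CPM to 564, 947, 835 and 784 CPM, with a log2 fold change of 1.44 (SE 0.16, limma adjusted p = 3.18e-07). MAFG, a small MAF partner of NRF2, rose by 0.66 log2 units (SE 0.19, limma adjusted p = 0.0144; 0.0501 without sgCtrl replicate 1). BACH1, a repressor that competes for the same elements, was counted in reads that an antisense gene, GRIK1-AS2, shared with identical values, and that feature rose by 1.00 log2 units (SE 0.22, limma adjusted p = 0.00262).

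Both subunits of the first enzyme of glutathione synthesis were more than 2 times as high with sgKeap1-2, whereas GSS, the second enzyme, stood at a log2 fold change of 0.01 (SE 0.21, limma adjusted p = 0.992). Of 17 glutathione genes tested 8 rose (47.1%) and 1 fell (5.88%), where 7.58% and 7.14% of all genes did so. The median log2 fold change was 0.49 against -0.003 over all genes. GCLM, the modifier subunit of glutamate-cysteine ligase, the rate-limiting enzyme of glutathione synthesis, was at 45.2, 66.6, 56.3 and 64.4 CPM with sgCtrl and at 251, 261, 255 and 269.5 CPM with sgKeap1-2. The groups lay far apart, and the log2 fold change was 2.17 (SE 0.13, limma adjusted p = 4.35e-12), a 4.49-fold difference. GCLC, the catalytic subunit, rose from 51.8, 65.6, 65.7 and 62.7 CPM to 181, 194, 192 and 184 CPM, and GSR, which regenerates reduced glutathione, from 224, 207, 194 and 194 CPM to 534, 527, 526 and 512 CPM. Their log2 fold changes were 1.62 and 1.36. SLC7A11, the cystine carrier, rose by 1.23 log2 units (SE 0.32, limma adjusted p = 0.00854), with sgCtrl libraries from 70.9 to 230 CPM (without sgCtrl replicate 1, adjusted p = 0.0549). The other members that rose were GPX2, GLRX, GPX3 and SLC3A2, and the member that fell was GLRX5, a mitochondrial glutaredoxin of iron-sulfur cluster assembly, by 0.57 log2 units. GLRX was not called without sgKeap1-2 replicate 3 or sgCtrl replicate 1 (limma adjusted p = 0.0521 and 0.0581).

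In the thioredoxin system 3 of 14 genes rose (21.4%) and 1 fell (7.14%), where 7.58% and 7.14% of all genes did so. TXNRD1, the NADPH-dependent reductase of thioredoxin, went from 95.8, 92, 77.8 and 82.8 CPM to 492, 437, 455 and 499.6 CPM, with a log2 fold change of 2.43 (SE 0.21, limma adjusted p = 4.32e-09). TXN itself rose by 1.27 log2 units (SE 0.34, limma adjusted p = 0.012) and PRDX1, a peroxide-reducing partner, by 0.38 log2 units (SE 0.10, limma adjusted p = 0.00788). TXNIP, which binds and inhibits thioredoxin, fell from 123, 66.1, 77.5 and 45.5 CPM to 37.3, 12.6, 16.9 and 20.5 CPM, a log2 fold change of -1.86 (SE 0.48, limma adjusted p = 0.00811). The groups did not overlap for any of these 4 genes.

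Of 14 genes of NADPH supply and the pentose phosphate pathway 6 rose and 0 fell, the former including ALDH1L1, TALDO1, PGD, TKT and IDH2. TALDO1, the transaldolase of the pentose phosphate pathway, went from 205, 235, 218 and 212 CPM to 602, 642, 635 and 566 CPM, with a log2 fold change of 1.49 (SE 0.10, limma adjusted p = 4.67e-11). ALDH1L1, which yields NADPH from folate-bound one-carbon units, went from 18.3, 22.4, 14.4 and 14.6 CPM to 73.7, 77.8, 76.4 and 66 CPM. PGD, a dehydrogenase of the oxidative branch, and TKT, the transketolase, rose by 1.32 and 0.76 log2 units. IDH2 was not called without sgKeap1-2 replicate 3 (limma adjusted p = 0.0596), and 1 member of the list fell without sgKeap1-2 replicate 4.

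Aldo-keto and quinone reductases gave the highest list median, 0.85 on the log2 scale, and 8 of the 14 tested rose and 0 fell. PTGR1 (chr9:114312002-114362173, GRCh37), a reductase of prostaglandins and lipid aldehydes, was at 42.4, 70.8, 25.8 and 18.2 CPM with sgCtrl and at 1059, 1181, 1113 and 987 CPM with sgKeap1-2. AKR1B10, a reductase of retinal and other carbonyls, went from 62.5, 109.5, 57.1 and 68.2 CPM to 1349, 1389.6, 1572 and 1365 CPM. The lowest sgKeap1-2 library lay more than 10 times above the highest sgCtrl library for both genes, and the log2 fold changes were 4.97 (SE 0.33, limma adjusted p = 4.43e-11) and 4.29 (SE 0.34, limma adjusted p = 8.46e-10). AKR1C2 went from 366, 429.6, 272 and 233 CPM to 3825, 2917, 2679 and 2938 CPM, and AKR1C1 and AKR1C3 rose by 2.30 and 1.70 on the log2 scale; reads of these near-identical paralogs may be divided uncertainly among them. NQO1, the quinone reductase by which NRF2 activity is often read, was named after its values were seen. It went from 693, 752, 686 and 669.6 CPM to 1892, 1749.7, 1822 and 1733 CPM, a log2 fold change of 1.36 (SE 0.08, limma adjusted p = 4.35e-12).

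**Figure D2:**
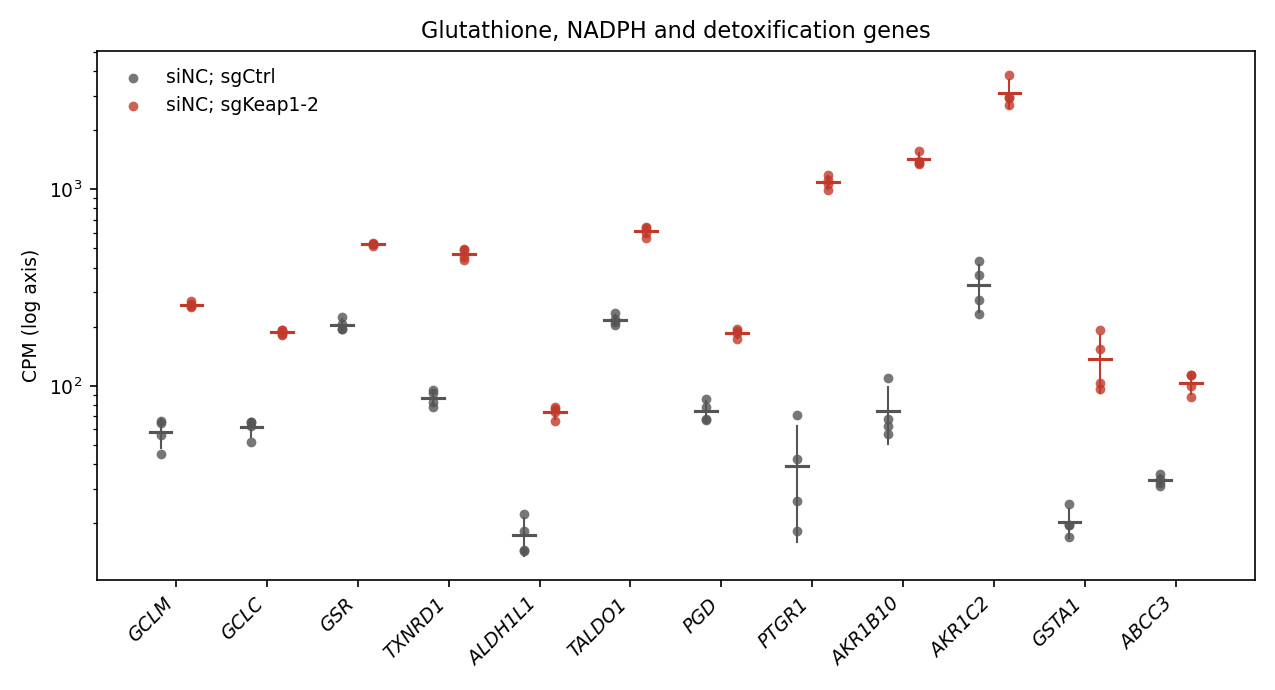
Points give the level in CPM on a log axis of 12 genes in each of 4 siNC; sgCtrl (grey) and 4 siNC; sgKeap1-2 (red) libraries, with bars for the mean and lines for 1 SD. For each of the 12 genes all red points lie above all grey points.

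Conjugation and export genes moved in both directions. Of 13 glutathione transferases 4 rose and 0 fell, and of 14 genes of glucuronidation and drug efflux 7 rose and 3 fell. MGST1, a membrane-bound transferase, rose by 1.33 log2 units. GSTA2 went from 4.83, 4.74, 2.3 and 5.66 CPM to 69.2, 33.4, 64.6 and 44.2 CPM and GSTA1 from 25.1, 19.7, 19.5 and 17 CPM to 193, 96.9, 153 and 104 CPM, the pair being close paralogs. UGT1A1, which conjugates bilirubin, had no sgCtrl library above 3 counts, a floor of 0.77 CPM, and was at 7.62, 9.42, 8.81 and 5.52 CPM with sgKeap1-2, at least 10.2-fold higher; UGT1A genes share their 3′ exons, so the reads may not be from UGT1A1 alone. Among exporters, ABCC3 went from 33.5, 35.7, 31.9 and 30.9 CPM to 87.5, 114, 114 and 99.9 CPM and ABCC2 from 48.5, 53.9, 47.1 and 46 CPM to 104, 138, 111 and 121 CPM. ABCB4, the phospholipid exporter of bile, went the other way, from 20.1, 31.2, 29.6 and 33.7 CPM to 13.6, 15.1, 14.7 and 15.9 CPM. ABCB1 and the nucleotide-sugar carrier SLC35D1 also fell, by 0.44 log2 units and 0.40 log2 units. ABCB1 was not called without any 1 of the 8 libraries (limma adjusted p 0.0501 to 0.103) nor SLC35D1 in 4 of those 8 fits (0.0644 to 0.0899), and the number of lower members was 1 without sgKeap1-2 replicate 1, sgKeap1-2 replicate 2, sgCtrl replicate 1 or sgCtrl replicate 3.

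Among 15 aldehyde dehydrogenases 3 rose (20%) and 1 fell (6.67%), where 7.58% and 7.14% of all genes did so. ALDH3A1, which oxidises aromatic and medium-chain aldehydes, was at 1.52, 1.5, 0.861 and 0 CPM with sgCtrl and at 10.4, 14.5, 17.4 and 12.9 CPM with sgKeap1-2. ALDH1A1, a retinal dehydrogenase, went from 163, 145, 133 and 132 CPM to 635, 440.0, 493 and 499 CPM. ALDH18A1, of proline synthesis, fell by 0.59 log2 units, and the number of lower members was 0 without sgKeap1-2 replicate 2, sgCtrl replicate 2 or sgCtrl replicate 3 and 2 without sgKeap1-2 replicate 1 or sgCtrl replicate 4. In the list of cytochrome P450 and flavin monooxygenases 5 of 17 rose and 4 fell. CYP2S1, CYP24A1 and CYP4F11 rose by 2.83, 2.42 and 2.22 on the log2 scale, and CYP2U1, FMO5 and CYP4F12 fell by 1.49, 0.92 and 0.71 log2 units. Without sgKeap1-2 replicate 3 the number of lower members was 2. CYP4F12 lost its call in 6 of the 8 fits that left out 1 library (limma adjusted p 0.0594 to 0.0986), and CYP2U1 without sgKeap1-2 replicate 3 or 4.

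Of 18 genes of heme breakdown and iron handling 5 rose and 3 fell. SLC40A1, the iron exporter ferroportin, went from 32.3, 27.2, 28.7 and 27.8 CPM to 103, 96.1, 101 and 114 CPM, with a log2 fold change of 1.84 (SE 0.25, limma adjusted p = 4.65e-06). FECH, which inserts iron into heme, and BLVRB, a biliverdin reductase, rose by 1.21 and 0.86 log2 units, and the ferritin chains FTL and FTH1 by 0.84 and 0.72 log2 units. The 3 members that fell were TFR2, TF and SLC11A2. TFR2, a transferrin receptor of hepatocytes, went from 20.1, 43.4, 35.6 and 43.6 CPM to 7.34, 12.9, 12.4 and 11.5 CPM. TF, which encodes transferrin, fell by 0.67 log2 units, and SLC11A2, the iron importer DMT1, fell by 0.42 log2 units. HMOX1, heme oxygenase 1, was at 35.1, 24.9, 21.5 and 23.1 CPM with sgCtrl and 37.3, 25.8, 24.2 and 32.7 CPM with sgKeap1-2 and was not called (log2 fold change 0.19, SE 0.21, limma adjusted p = 0.628).

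Sequences upstream of the start were then read, since NRF2 with small MAF proteins is known to bind elements with the core TGACNNNGC. Promoter windows of 250 bases before to 50 after the annotated start (RefSeq, GRCh38.p14) were matched for 9123 of the 11152 genes and searched on both strands. The longer form TGACTCAGC, which contains the AP-1 site TGACTCA, was in 14 of 654 matched genes that rose (2.14%), in 1 of 624 that fell (0.16%) and in 0.637% of those not called, where 0.712% of the 9123 matched genes held it. A gene was counted if any of its windows held the match. Counted by single window, 0.561% of all 35116 windows held it. The looser core was in 22.9% of the genes that rose, 17% of those that fell and 19.5% of those not called. The E-box form CACGTGAC, which contains CACGTG and is of the kind that TFEB and TFE3 bind, was in 3.21%, 3.69% and 5.89%. The windows below are those of the glutathione and thioredoxin genes GCLM and TXNRD1, which hold the looser core, of genes that rose with the longer form, and of MT2A, the single gene that fell with it; capitals mark the element, coordinates are those of the printed stretch, and LUCAT1, AIFM2 and MT2A were chosen after their values were seen.
GCLM (chr1:93909436-93909484, minus strand, element from -34): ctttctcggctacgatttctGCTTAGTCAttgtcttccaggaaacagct
TXNRD1 (chr12:104286910-104286958, plus strand, element from -102): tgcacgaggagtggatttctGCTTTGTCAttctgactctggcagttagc
SLC3A2 (chr11:62881642-62881690, plus strand, element from -37): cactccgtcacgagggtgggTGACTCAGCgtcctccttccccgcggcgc
HK1 (chr10:69334364-69334408, plus strand, element from -234): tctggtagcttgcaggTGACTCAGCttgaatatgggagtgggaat
LUCAT1 (chr5:91314428-91314476, minus strand, element from -54): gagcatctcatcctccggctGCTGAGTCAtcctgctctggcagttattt
AIFM2 (chr10:70132826-70132867, minus strand, element from -22): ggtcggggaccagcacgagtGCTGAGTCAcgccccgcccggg
MT2A (chr16:56608460-56608508, plus strand, element from -104): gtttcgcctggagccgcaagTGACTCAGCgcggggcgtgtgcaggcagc
Element positions are counted from the transcription start, and a match describes the letters only. Windows not printed also held the looser core, among them those of HMGCS1, SLC30A10, SLC35D1, RXRA and KLB, which fell. So did windows of PGD and FECH, which rose, and of KEAP1, which was not called. TXNRD1 held a further match in another annotated promoter. HK1, a hexokinase, rose by 1.98 log2 units (SE 0.57, limma adjusted p = 0.0179) and was not called without sgCtrl replicate 1 or sgCtrl replicate 3. LUCAT1, a long non-coding RNA, went from 1.78, 2.99, 1.72 and 0.943 CPM to 26.5, 34.7, 29.8 and 26.2 CPM, a log2 fold change of 3.99 (SE 0.36, limma adjusted p = 6.02e-09). AIFM2, the ferroptosis suppressor FSP1, rose by 0.65 log2 units (SE 0.12, limma adjusted p = 0.000531). SLC3A2, the heavy chain of the cystine carrier, rose by 0.61 log2 units (SE 0.13, limma adjusted p = 0.00174), with 1 sgKeap1-2 library inside the sgCtrl range.

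Among the 12 genes that rose most at a mean of at least 20 counts, MAP2, DEFB1, KILH and LAMC3 were near absent in sgCtrl cells, whereas PTGR1, AKR1B10 and SEL1L3 were not. MAP2, a microtubule-associated protein of neurons, was at 0, 2.24, 0 and 0 CPM with sgCtrl and 23.4, 33.1, 43.6 and 35 CPM with sgKeap1-2. DEFB1, an antimicrobial beta-defensin, was at 0.508, 6.23, 0 and 0 CPM and 43.2, 48.2, 49.9 and 51.8 CPM. For both, sgCtrl replicate 2 was the highest of its group, and since 2 or more sgCtrl libraries held no read the fitted log2 fold changes of 6.97 and 6.55 depend on the prior count. KILH, at 21.7, 33.4, 20.8 and 18.2 CPM with sgKeap1-2, was at least 30.6-fold higher, and LAMC3, a laminin chain, at 7.91, 19.1, 19.4 and 15.9 CPM, at least 20.2-fold. In all, 32 genes that rose had no sgCtrl library above 3 counts, and 3 that fell had no sgKeap1-2 library above 3 counts. Of the other neuronal markers, TUBB3, STMN2, GAP43 and RBFOX3 were not in the table and ENO2 rose by 1.03 log2 units; the summed level of the 3 in the table was 17 to 32.7 CPM with sgCtrl and 61.8 to 98.7 CPM with sgKeap1-2. SPP1, the secreted phosphoprotein osteopontin, was named after its values were seen and went from 210.3, 199.7, 203 and 176 CPM to 1446, 1418, 1752 and 1522 CPM, a log2 fold change of 2.96 (SE 0.19, limma adjusted p = 1.26e-11).

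Signalling ligands and receptors were among the leading genes. Of 31 growth factor and TGF-β family genes 10 rose and 8 fell, with a median of 0.29. NOTCH3, a Notch receptor, went from 0.254, 1.75, 0.287 and 0.236 CPM to 15.5, 19.1, 15.6 and 14.7 CPM, a log2 fold change of 4.82 (SE 0.62, limma adjusted p = 2.8e-06). NRG1, a ligand of ERBB receptors, went from 0.508, 1.25, 0.861 and 0 CPM to 11.9, 16.1, 8.81 and 15.2 CPM, and EGF was at 1.41, 4.31, 3.39 and 5.29 CPM, at least 4.68-fold higher than with sgCtrl. INHBB, JAG1 and IGFBP3 also rose, at log2 fold changes of 2.76, 2.13 and 3.71. IGF2, a foetal growth factor, went from 617, 505, 483 and 420.3 CPM to 161, 176, 166 and 148 CPM, a log2 fold change of -1.62 (SE 0.33, limma adjusted p = 0.00101), and ERBB2, ERBB3, FGFR1, FGFR3 and FGFR4 fell by 0.42 to 0.95 on the log2 scale. NOTCH2, another Notch receptor, went from 13, 12.5, 14.4 and 14.9 CPM to 5.08, 9.69, 9.04 and 4.83 CPM and was not called without sgKeap1-2 replicate 4 (limma adjusted p = 0.062). TGFA, an EGF receptor ligand, fell by 0.98 log2 units. FGFR4 lost its call in 6 of the 8 fits that left out 1 library (limma adjusted p 0.0551 to 0.167).

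Matrix genes also moved in both directions, with 7 of 23 higher and 4 lower. COL2A1, the collagen of cartilage, fell from 18.3, 28.9, 29 and 34.9 CPM to 3.11, 3.5, 3.39 and 4.83 CPM, a log2 fold change of -2.84 (SE 0.33, limma adjusted p = 4.51e-07), and TIMP1, a metalloproteinase inhibitor, rose from 32.8, 40.9, 44.2 and 30.4 CPM to 65.2, 85, 89.7 and 97.3 CPM while TIMP3 fell by 0.66 log2 units. FN1, LAMB1, COL6A1, LOXL2 and TIMP2 rose by 0.63 to 1.90 log2 units, and the microfibril gene FBN1 fell by 1.57 log2 units. With 1 library left out, FBN1 lost its call in 6 of 8 fits (limma adjusted p 0.0753 to 0.227) and LOXL2, the highest of that range, in 5 (0.0528 to 0.0659). The number of lower members was 2 without sgKeap1-2 replicate 3, sgKeap1-2 replicate 4 or sgCtrl replicate 4. Among the mesenchymal markers COL1A2, COL3A1 and DES were not in the table and the summed level of the other 5 was 123 to 127 CPM with sgCtrl and 75.1 to 112 CPM with sgKeap1-2; their part in these values was not tested.

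Metallothioneins, small cysteine-rich proteins that bind zinc and copper, fell together. Of 13 genes of this list 9 fell and 0 rose, against a background of 7.14%, and the median log2 fold change was -1.26. MT1M was at 62.7, 49.4, 53.1 and 37 CPM with sgCtrl and at 3.11, 5.11, 3.16 and 6.67 CPM with sgKeap1-2, and MT1G at 733, 559, 596 and 395 CPM and 137, 116, 137 and 172 CPM. No library of one group entered the range of the other, and the log2 fold changes were -3.48 (SE 0.35, limma adjusted p = 7.04e-08) and -2.0 (SE 0.20, limma adjusted p = 5.42e-08). MT1F, MT1A, MT1X, MT1E and MT2A fell by 1.72, 1.6, 1.55, 1.26 and 0.69 log2 units, with reads of these paralogs possibly shared. The zinc and manganese carriers SLC30A10 and SLC39A14 fell by 1.95 and 0.82 log2 units. Each of the 18 alternatives run also called 9 members lower.

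Of 22 genes of cholesterol synthesis and SREBP2 targets 15 fell and 0 rose, and 1 of the 22 had a positive log2 fold change, with a median of -0.67. HMGCS1, an early synthase of the pathway, went from 435, 563, 612 and 609 CPM to 258, 210.2, 282 and 257 CPM, a log2 fold change of -1.13 (SE 0.14, limma adjusted p = 1.11e-06). EBP, a sterol isomerase, went from 169, 167, 175 and 198 CPM to 115, 87.2, 100.5 and 93.2 CPM, and SQLE, which epoxidises squalene, from 217, 322, 293 and 318 CPM to 174, 161, 151 and 169 CPM. EBP and SQLE were chosen as examples after their values were seen. For each of these 3 genes every sgKeap1-2 library lay below every sgCtrl library, and the log2 fold changes of EBP and SQLE were -0.84 (SE 0.12, limma adjusted p = 8.45e-06) and -0.80 (SE 0.15, limma adjusted p = 0.000326). MVK, MVD, HSD17B7, IDI1, MSMO1, DHCR7, FDFT1, FDPS and TM7SF2 fell by 0.50 to 0.96 log2 units, and the number of lower members was 14 or 15 without any single library. IDI1 was not called in 6 of those 8 fits (limma adjusted p 0.0722 to 0.175).

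Of 20 genes of fatty acid synthesis and desaturation 9 fell and 1 rose. ELOVL2, an elongase of polyunsaturated fatty acids, went from 207, 182, 190.1 and 190.3 CPM to 96, 74.3, 67.1 and 84.9 CPM, a log2 fold change of -1.27 (SE 0.12, limma adjusted p = 2.87e-08), and PNPLA3, a lipid droplet hydrolase, fell by 1.12 log2 units. ELOVL6, an elongase of saturated chains, fell by 0.67 log2 units, and FASN and SCD by 0.37 and 0.36 log2 units. AGPAT2, an acyltransferase of phosphatidic acid synthesis, rose by 2.37 log2 units (SE 0.52, limma adjusted p = 0.00236). Of 26 genes of fatty acid oxidation 3 rose (11.5%) and 4 fell (15.4%), where 7.58% and 7.14% of all genes did so. CPT1A, which commits fatty acids to mitochondrial oxidation, rose from 89.4, 113, 128 and 75.7 CPM to 267, 314, 272 and 253 CPM, and ETFB and ACADVL rose by 0.75 and 0.42 log2 units, whereas HADH, of the mitochondrial beta-oxidation cycle, fell from 68.8, 65.6, 73.2 and 60.4 CPM to 36.4, 35, 38.4 and 34.7 CPM, and EHHADH and ACAA1, of the peroxisome, by 0.67 and 0.61 log2 units. With 1 library left out, ACADVL was not called in 6 of 8 fits (limma adjusted p 0.0559 to 0.232, log2 fold change 0.25 at the lowest), SCD in 6 (0.0949 to 0.123), ELOVL6 in 5 (0.0617 to 0.0727) and FASN in 3 (0.0509 to 0.0657).

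Of 19 genes of glycolysis 10 rose and 0 fell, with 18 of the 19 positive and a median of 0.43, and of 12 genes of gluconeogenesis 4 fell and 0 rose. PFKP, a phosphofructokinase, went from 4.06, 2.49, 4.31 and 3.77 CPM to 12.1, 22.9, 15.8 and 19.1 CPM, and PFKFB3, which makes its activator, from 5.33, 12.7, 12.6 and 3.07 CPM to 18.9, 35.5, 33 and 29.7 CPM. PCK1, the first committed enzyme of gluconeogenesis, went from 6.1, 11.7, 17.5 and 18.2 CPM to 2.54, 1.08, 2.49 and 1.84 CPM, a log2 fold change of -2.61 (SE 0.71, limma adjusted p = 0.0119). G6PC1, which releases free glucose, went from 2.29, 14, 10.6 and 8.02 CPM to 1.41, 0, 0.904 and 1.15 CPM, a log2 fold change of -3.32 (SE 1.03, limma adjusted p = 0.0291), on few reads, and lost its call in 6 of the 8 fits that left out 1 library (limma adjusted p 0.0571 to 0.0969). CREB3L3, a liver transcription factor of the fasting state, fell by 1.02 log2 units and was not called without sgKeap1-2 replicates 3 or 4 or sgCtrl replicate 4. Without sgCtrl replicate 1 the glycolysis count was 6. The gluconeogenesis count was 2, 1, 2 and 2 without sgKeap1-2 replicates 2, 3 and 4 and sgCtrl replicate 4.

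Of 32 plasma protein genes 11 fell and 1 rose, and of 14 apolipoprotein and lipoprotein assembly genes 6 fell and 0 rose. AFP, the foetal serum protein that HepG2 secretes, went from 4829.6, 7944, 7451 and 9100.4 CPM to 1458, 1594, 1825 and 2253 CPM, and ALB, which encodes albumin, from 8526, 11058, 11759 and 12197 CPM to 4974, 4228, 4524 and 4919.5 CPM. The log2 fold changes were -2.02 (SE 0.24, limma adjusted p = 7.73e-07) and -1.21 (SE 0.11, limma adjusted p = 8.61e-09). VTN, which encodes vitronectin, fell by 1.51 log2 units, the fibrinogen chains FGA, FGB and FGG by 0.49, 0.41 and 0.54 log2 units, and CP, which encodes the copper carrier ceruloplasmin, rose by 0.70 log2 units and was not called without sgKeap1-2 replicate 3 or sgCtrl replicate 1. MTTP, which loads lipid onto apolipoprotein B, was at 95.8, 131, 114 and 127 CPM with sgCtrl and 12.1, 11.8, 15.8 and 27.2 CPM with sgKeap1-2, a log2 fold change of -2.85 (SE 0.24, limma adjusted p = 2.23e-09). LCAT, APOC3, APOA5, APOA1 and APOH fell by 0.65 to 1.19 log2 units. FGG was not called in 6 of the 8 fits that left out 1 library (limma adjusted p 0.0538 to 0.17), FGB without sgCtrl replicate 2 or 4, and APOA5 without sgKeap1-2 replicate 4. APOB itself had a log2 fold change of -0.43 (SE 0.16, limma adjusted p = 0.0763).

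**Figure D3:**
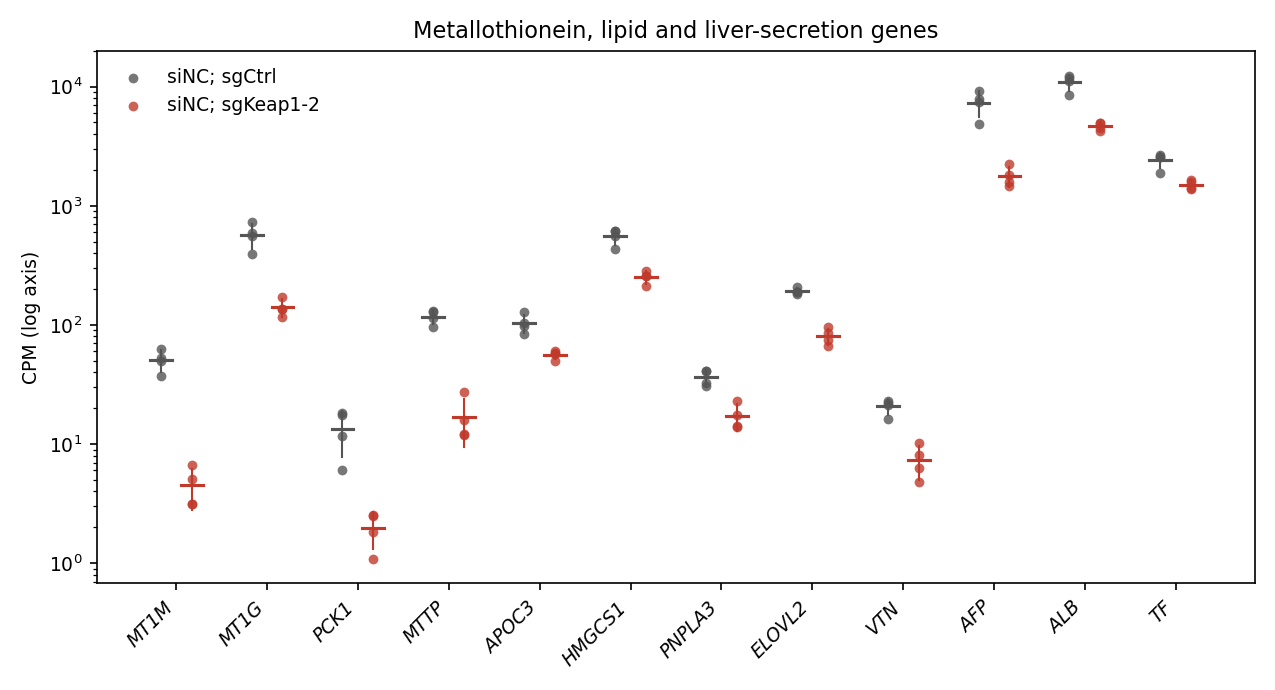
Points give the level in CPM on a log axis of 12 genes of metal binding, lipid synthesis and liver secretion in each of 4 siNC; sgCtrl (grey) and 4 siNC; sgKeap1-2 (red) libraries, with bars for the mean and lines for 1 SD. For each of the 12 genes all red points lie below all grey points.

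Of 21 hepatocyte transcription factors 6 fell and 0 rose. NR2F2, GATA4, FOXA3, RXRA, NR2F1 and ONECUT1 fell by 0.41 to 1.43 log2 units, and HNF4A stood at -0.33 (SE 0.11, limma adjusted p = 0.0502). Without sgKeap1-2 replicate 3 the number of lower members was 3. With 1 library left out, ONECUT1 was not called in 5 of 8 fits (limma adjusted p 0.0774 to 0.145), FOXA3 and NR2F1 in 2 each and GATA4 in 1. Of 14 genes of bile acid synthesis 4 fell and 2 rose. CYP8B1, which sets the ratio of the primary bile acids, went from 4.83, 5.24, 6.89 and 6.13 CPM to 1.98, 1.35, 2.94 and 1.15 CPM, and KLB, the co-receptor of FGF19, fell by 0.93 log2 units. ABCC2 and CYP27A1, a sterol hydroxylase, were the members that rose, and their number was 1 without sgKeap1-2 replicates 2 or 3 or sgCtrl replicates 1, 3 or 4. Of the 9 hepatocyte markers 5 fell, ALB, AFP, APOA1, TF and FGB, and the summed marker level of every sgKeap1-2 library was below that of every sgCtrl library. KRT19, a keratin of bile duct cells, rose by 1.20 log2 units and SOX9 fell by 0.41 log2 units. KRT7 and CFTR, other markers of those cells, were not in the table. EPCAM, the remaining marker, was not called and gave the list median of -0.05. The summed level of the 3 in the table was 708 to 730 CPM with sgCtrl and 891 to 1042 CPM with sgKeap1-2. The part of these markers in the secretion values was not tested.

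Of the lysosomal genes, which TFEB and TFE3 are known to drive, 18 rose and 0 fell, mostly by small amounts. Of 36 lysosomal hydrolases and activators 12 rose (33.3%) and 0 fell, with a median of 0.22 and 27 positive. Of 28 membrane proteins 3 rose (10.7%), and of 17 proton pump genes 3 rose (17.6%), with 0 lower in both. Over all genes tested 7.58% rose and 7.14% fell, so the membrane share was near that of all genes. The number of lower pump genes was 1 without sgKeap1-2 replicate 1 or sgCtrl replicate 4. The values of these lists with TFEB and TFE3 knocked down are given further below. GLA, the alpha-galactosidase, went from 11.4, 14.5, 9.19 and 15.3 CPM to 37.8, 36.9, 40.7 and 37.7 CPM, a log2 fold change of 1.61 (SE 0.18, limma adjusted p = 4.51e-07), and CTSB, a cysteine protease, from 412, 533, 518 and 540.1 CPM to 700.0, 1219.7, 1148 and 976 CPM. IDS, HEXA, ARSA, TPP1, CTSA, PSAP and CTSD rose by 0.34 to 1.09 log2 units. Pump subunits ATP6V1D, ATP6V1E1 and ATP6V0E1 rose by 0.51, 0.50 and 0.50 log2 units. LAMP1 rose by 0.30 log2 units (SE 0.09, limma adjusted p = 0.0266), IGF2R and CD63 by 0.65 and 0.57 log2 units, and LAMP2 was at -0.02 (SE 0.14, limma adjusted p = 0.943). With 1 library left out, LAMP1 was not called in 6 of 8 fits (limma adjusted p 0.0528 to 0.0935), IGF2R in 6 (0.0552 to 0.0995), ARSA in 5 (0.067 to 0.133), CTSA in 4 (0.0527 to 0.0787) and CTSD in 3 (0.0771 to 0.134). The membrane count was 1 without sgKeap1-2 replicate 2, sgKeap1-2 replicate 4 or sgCtrl replicate 2. Without the 2 libraries that stood apart 17 hydrolases, 6 membrane proteins and 5 pump genes rose, and 1 gene fell in each of the membrane and pump lists.

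TFEB RNA was at 17.3, 6.98, 8.33 and 10.8 CPM with sgCtrl and 10.4, 13.7, 10.4 and 7.59 CPM with sgKeap1-2, with overlapping ranges and a log2 fold change of -0.01 (SE 0.26, limma adjusted p = 0.992). TFE3 RNA was at 29.2, 35.9, 31.9 and 36.1 CPM and 53.4, 75.6, 38.4 and 52 CPM, with no overlap, and rose by 0.67 log2 units (SE 0.20, limma adjusted p = 0.0254); it was not called without sgKeap1-2 replicates 2 or 4 or sgCtrl replicates 1 or 3 (limma adjusted p 0.0518 to 0.119). Of 24 MiT/TFE and nutrient-sensing genes 4 rose (16.7%) and 1 fell (4.17%), where 7.58% and 7.14% of all genes did so. Without sgCtrl replicate 3 the higher count was 1 (2 without sgKeap1-2 replicates 2, 3 or 4 or sgCtrl replicates 1 or 4). GPNMB, a lysosomal glycoprotein and known MiT/TFE target, went from 1.27, 1.25, 1.15 and 0.236 CPM to 5.65, 2.96, 5.2 and 2.53 CPM and was not called without sgCtrl replicate 4 (limma adjusted p = 0.0605). FNIP2, a partner of folliculin, fell by 0.72 log2 units. Of 28 autophagy genes 6 rose and 0 fell, led by SQSTM1 and by GABARAPL1, an ATG8 protein of autophagosomes, which went from 12.7, 33.9, 29.9 and 28.8 CPM to 53.7, 86.4, 67.6 and 56.6 CPM. FYCO1, an adaptor of autophagosome transport, rose by 0.86 log2 units and was not called in 4 of the 8 fits that left out 1 library (limma adjusted p 0.0618 to 0.0858). That count was 3 without sgKeap1-2 replicate 2, sgKeap1-2 replicate 4 or sgCtrl replicate 1.

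**Figure D4:**
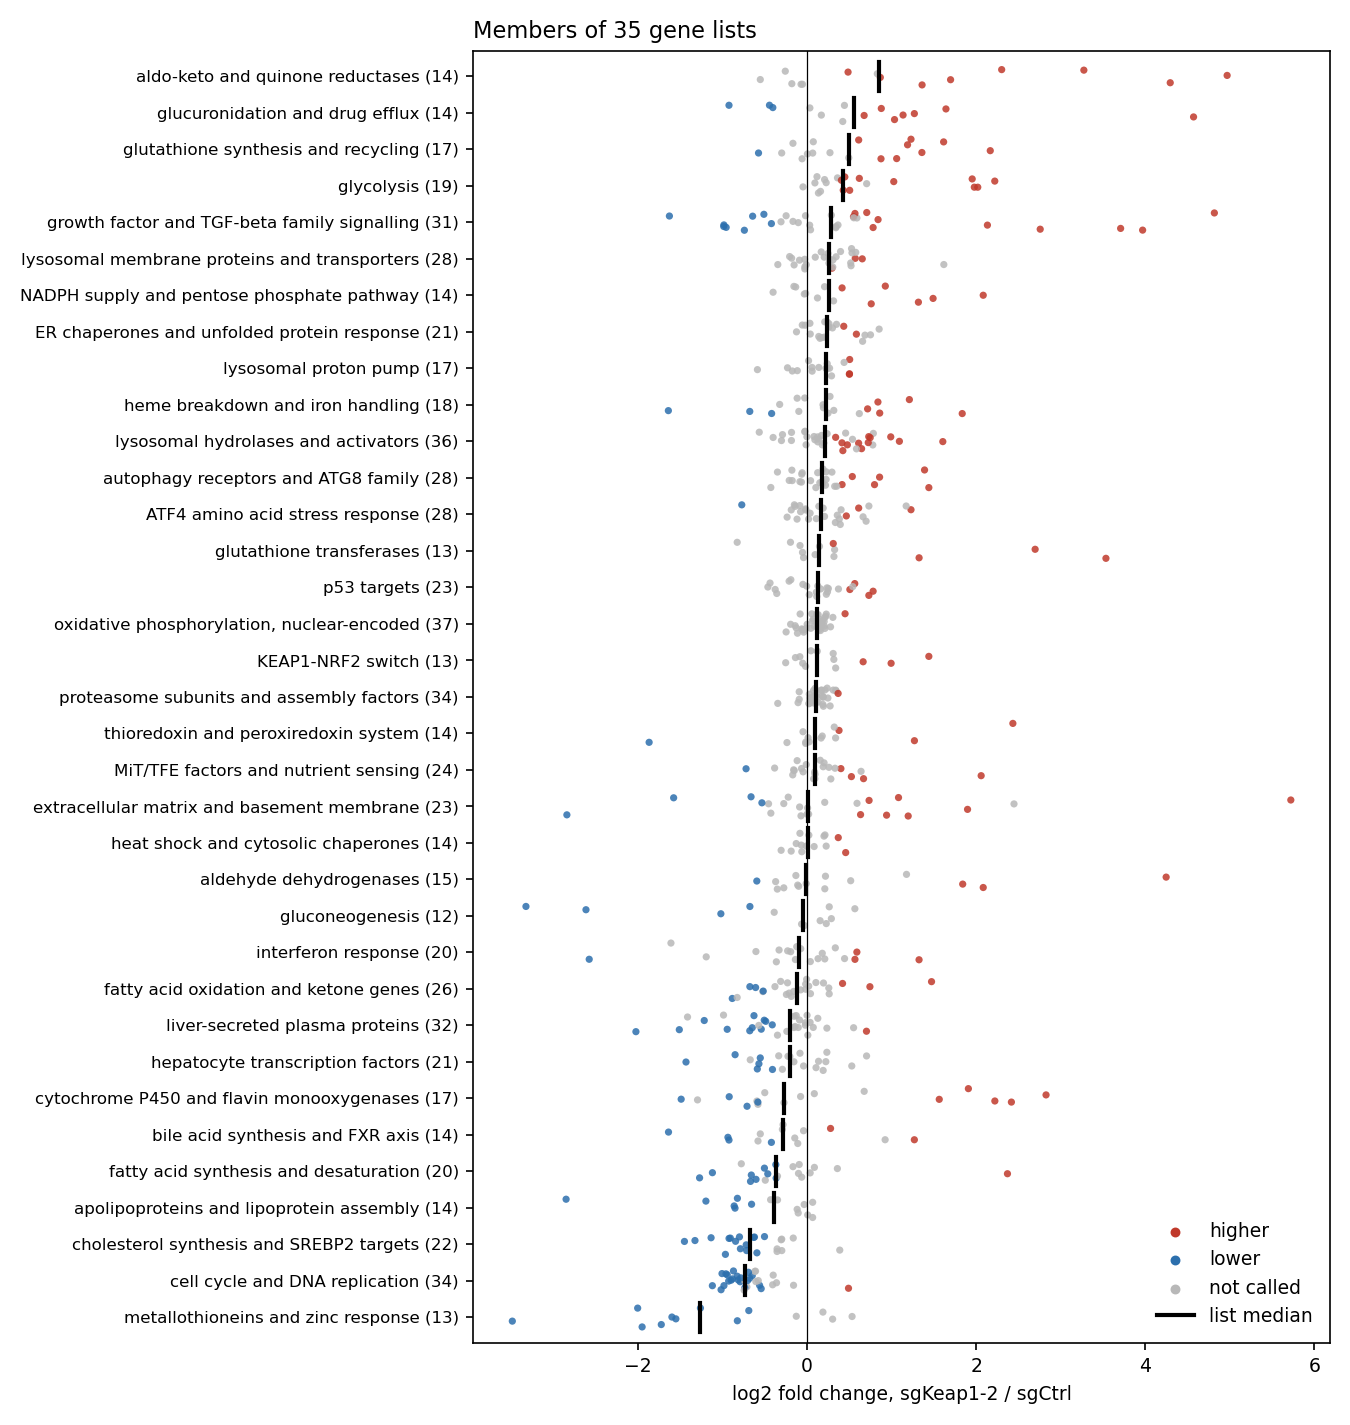
Each point is a tested member of 1 of 35 gene lists, placed by its log2 fold change of sgKeap1-2 over sgCtrl under siNC; black bars mark list medians and the number after each name is that of members tested. List medians run from -1.26 for metallothioneins to 0.85 for aldo-keto and quinone reductases.

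Of 34 cell cycle and DNA replication genes 21 fell and 1 rose, with a median of -0.73 and 1 positive value. That is 61.8% lower, where 7.14% of all genes fell and the shares were 69.2% for metallothioneins and 68.2% for cholesterol synthesis. E2F1, which switches on replication genes, went from 84.6, 52.4, 56 and 58.7 CPM to 47.2, 25.3, 19.2 and 30.1 CPM, AURKB, a mitotic kinase, from 124, 111, 106 and 87.3 CPM to 72, 35.3, 49 and 61.2 CPM, and BUB1B, of the spindle checkpoint, from 47, 26.4, 38.2 and 33.7 CPM to 24.6, 11.8, 15.6 and 21.4 CPM. In each, sgCtrl replicate 1 and sgKeap1-2 replicate 1 were the highest of their groups, and no sgKeap1-2 library reached the lowest sgCtrl library. CDK1, CCNA2, TOP2A, PLK1, MCM2 and PCNA fell by 0.68 to 0.98 log2 units, of which PCNA was not called in 5 (limma adjusted p 0.0537 to 0.175) and MCM2 in 4 (0.0554 to 0.0963) of the 8 fits that left out 1 library. MKI67 was at -0.74 (SE 0.28, limma adjusted p = 0.0743). CCND1, the G1 cyclin, was the member that rose, from 260.1, 264, 274 and 246 CPM to 377, 368, 354 and 369 CPM. The number of members that fell was 14 to 27 when single libraries were left out, the lowest without sgKeap1-2 replicate 3. Of 23 p53 targets 4 rose and 0 fell, GDF15, PLK3, CDKN1A and TP53INP1, and the number was 2 without sgKeap1-2 replicate 2 or 3 and 1 without sgCtrl replicate 1.

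In the lists of other stress programmes the share of members that rose was 10.7% for ATF4 targets, 9.52% for ER chaperones, 14.3% for heat shock, 15% for interferon and 2.94% for proteasome genes, where 7.58% of all genes rose. Of 28 ATF4 targets 3 rose and 1 fell, of 21 ER chaperones 2 rose, SDF2L1 and HYOU1, and of 14 heat shock genes 2 rose, HSPB1 and DNAJB1, by 0.37 to 0.59 log2 units. Of 34 proteasome genes 1 rose, POMP, by 0.37 log2 units (SE 0.07, limma adjusted p = 0.000909). Of the proteasome values 30 were positive, with a median of 0.11 on the log2 scale. The members of the ATF4 list that rose were both chains of the cystine carrier and WARS1, a tRNA synthetase, and PHGDH, of serine synthesis, fell by 0.77 log2 units. Of 20 interferon genes 3 rose, OAS1, IFITM3 and IFITM2, and 1 fell, IFIT1, at 4.06, 2.24, 1.44 and 0.708 CPM against 0.565, 0.269, 0 and 0.23 CPM. Of 37 nuclear genes of oxidative phosphorylation 1 rose, ATP5MC1, with a median of 0.12 on the log2 scale. Without the 2 libraries that stood apart 9 ER, 7 proteasome and 5 ATF4 genes rose. The ATF4 count of higher members was 1 without sgCtrl replicate 1, the ER count 0 without sgKeap1-2 replicate 2 and 1 without sgKeap1-2 replicate 3 or sgCtrl replicates 2, 3 or 4. The heat shock count was 0 or 1 without any library but sgCtrl replicate 2, and the proteasome count 2 without sgKeap1-2 replicate 3. WARS1 and SDF2L1 were each not called in 6 of the 8 fits that left out 1 library (limma adjusted p 0.0569 to 0.148 and 0.0552 to 0.109). IFIT1 was not called without sgKeap1-2 replicates 2, 3 or 4 or sgCtrl replicates 1 or 2, and ATP5MC1 without sgKeap1-2 replicates 1, 3 or 4 or sgCtrl replicates 2, 3 or 4.

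Other genes among those that fell most belong to no list. SCN1A, a voltage-gated sodium channel, went from 17.5, 18.7, 12.6 and 14.2 CPM to 3.95, 0.807, 0.678 and 2.3 CPM, a log2 fold change of -3.29 (SE 0.49, limma adjusted p = 2.23e-05). SIRPA, the receptor that binds CD47, went from 26.4, 25.7, 21.2 and 20.8 CPM to 3.39, 4.31, 3.61 and 6.21 CPM, and TNFSF10, the death ligand TRAIL, from 19, 29.2, 28.1 and 22.4 CPM to 4.24, 2.15, 5.2 and 6.67 CPM. CPN1, a plasma carboxypeptidase, SLCO4C1, an organic anion carrier, ACTA1, the skeletal muscle actin, FREM1 and CTXND1 fell by 2.16 to 2.66 log2 units. Among those that rose, SEL1L3 went from 7.62, 15.2, 5.74 and 3.54 CPM to 129.6, 184, 189.8 and 159 CPM, and HRCT1 and HHIPL2 rose by 4.73 and 4.44 log2 units.

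The same guide was also compared with sgCtrl in cells with TFEB and TFE3 knocked down, in 8 other libraries, which up to here entered only the filter on low counts, the scaling and the estimate of spread. A library that stood apart, replicate 1 of sitfeb/sitfe3; sgKeap1-2, is among them. With sgKeap1-2, mean TFEB RNA was 3.39 CPM there and 10.5 CPM under siNC, and mean TFE3 RNA 16.5 and 54.9 CPM. With sgCtrl the means were 2.64 and 10.9 CPM for TFEB and 11.9 and 33.3 CPM for TFE3. Fold changes here are against sgCtrl cells that were also knocked down, so they do not show how far the levels themselves fell. The study reports that this knockdown lowered expression of lysosomal genes in cells with a KEAP1 guide. In these 8 libraries 2253 of 11152 genes were called (20.2%), 1184 higher (10.6%) and 1069 lower (9.59%). Of the genes called under siNC 1249 were called again in the same direction, 661 higher and 588 lower, and 0 in the opposite direction, which is 76.1% of the first list and 55.4% of the second. Without the 2 libraries that stood apart 2621 genes were called in the second set and 1710 in both with 1 sign. By sign alone 1623 of the 1641 genes, or 98.9%, moved the same way. The median size of the change of the 1641 genes was 0.78 on the log2 scale under siNC and 0.77 with knockdown, taken in the direction seen under siNC. With knockdown 8 of the 36 lysosomal hydrolases and activators rose and 2 fell, at a median of 0.21, which was 0.22 under siNC. Of the 28 membrane proteins 3 rose and 1 fell, at a median of 0.05 (0.26 under siNC). Among the 17 pump genes 4 rose and 1 fell, at a median of 0.13 (0.225 under siNC). Without the 2 libraries that stood apart 16, 4 and 5 rose with knockdown, at medians of 0.38, 0.17 and 0.22. The labels do not say whether the 2 sets came from one transduction. The difference between the 2 effects was tested gene by gene, and limma, edgeR and DESeq2 each called 0 genes. An unadjusted limma p under 0.05 was found for 454 of the 11152 genes, fewer than the 5% that pass when no gene differs. These counts do not show that the 2 effects were equal, since each difference carries the spread of 4 groups, 1 with a library that stood apart. The smallest p-values were those of NES, an intermediate filament protein, whose log2 fold change was 0.53 under siNC and 1.54 with knockdown (difference 1.01, SE 0.23, limma adjusted p = 0.991), and of LBX2, at -0.05 and -1.40 (difference -1.34, SE 0.35, limma adjusted p = 0.991). GPNMB had a log2 fold change of 2.06 under siNC and 0.44 with knockdown, a difference of -1.62 (SE 0.73). FLCN, folliculin, was at 0.53 and -0.10, a difference of -0.63 (SE 0.25), and neither passed (limma adjusted p = 0.991 for both). GPNMB and FLCN were chosen after their values were seen, and the median difference over the MiT/TFE list was -0.05. It was -0.10, -0.08 and -0.01 for lysosomal hydrolases, membrane proteins and pump genes, and -0.001 over all genes. SQSTM1 differed by -0.03 (SE 0.23), GLA by -0.14 (SE 0.26) and CTSB by -0.41 (SE 0.23).

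The guides were compared directly under siNC, sgKeap1-2 against sgKeap1-1. limma called 0 genes, edgeR called 2 and DESeq2 called 9. An unadjusted limma p under 0.05 was found for 598 of the 11152 genes, close to the 5% that pass when no gene differs. These counts do not show that the guides had equal effects. KEAP1 RNA stood at 79.3, 81, 72.1 and 77.1 CPM with sgKeap1-2 and at 53.8 ± 6.17 CPM with sgKeap1-1 (SD, n = 4), a log2 difference of 0.53 (SE 0.11, limma adjusted p = 0.129, 95% interval 0.32 to 0.74). MIXL1, a homeobox factor of early mesoderm, and CRYBG1 had the smallest p-values. MIXL1 was at 82, 71.1, 85.3 and 64.6 CPM with sgCtrl, 19.5, 17, 26.9 and 25.3 CPM with sgKeap1-2 and 46.2 ± 9.91 CPM with sgKeap1-1 (SD, n = 4), a difference of -1.03 between the guides on the log2 scale (95% interval -1.39 to -0.68, limma adjusted p = 0.061). CRYBG1 differed by -0.92 on the same scale (95% interval -1.26 to -0.58, limma adjusted p = 0.0717). The log2 difference between guides was 0.29 (95% interval 0.07 to 0.51) for GCLM, 0.40 (95% interval 0.01 to 0.78) for TXNRD1, 0.47 (95% interval -0.04 to 0.98) for PTGR1 and 0.68 (95% interval 0.10 to 1.26) for AKR1B10. All 95% intervals here take the SE at a normal quantile, so they are narrower than those of the limma test. For TXNRD1 the unadjusted limma p was 0.0522, and the limma adjusted p was 0.815 for each of these 4 genes. Without the 2 libraries that stood apart the 4 differences were 0.22, 0.17, 0.35 and 0.24, KEAP1 was at 0.48 and MIXL1 at -0.93 (limma adjusted p = 0.569 and 0.109).

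For the cell cycle list, the comparisons of the 2 guides with sgCtrl share the same 4 sgCtrl libraries, so their values are set side by side only. The median log2 fold change of the 34 genes was -0.73 with sgKeap1-2, where 21 fell and 1 rose, and -0.36 with sgKeap1-1, where 1 fell and 1 rose against 4.91% and 6.01% of all genes. Against sgKeap1-1 directly, 33 of the 34 were lower with sgKeap1-2, with a median difference of -0.40 on the log2 scale and 0 of them called. Over all genes 52.2% were higher with sgKeap1-2 in this contrast, and the members of a list are not independent observations. Without the 2 libraries that stood apart, of which replicate 1 of siNC; sgKeap1-1 is in this contrast, 11 members fell with sgKeap1-1 at a median of -0.44, 27 fell with sgKeap1-2 at -0.73, and the median difference between guides was -0.27, negative in 32 of 34. With TFEB and TFE3 knocked down the sgKeap1-2 median was -0.75, with 23 lower. By contrast the medians for cholesterol synthesis were -0.67 with sgKeap1-2 and -0.66 with sgKeap1-1, with 15 lower for both. Of the 28 ATF4 targets 25 were higher with sgKeap1-2 than with sgKeap1-1, with a median difference of 0.29 on the log2 scale, and 0 of them were called; without the 2 libraries that stood apart the median was 0.15.

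**Figure D5:**
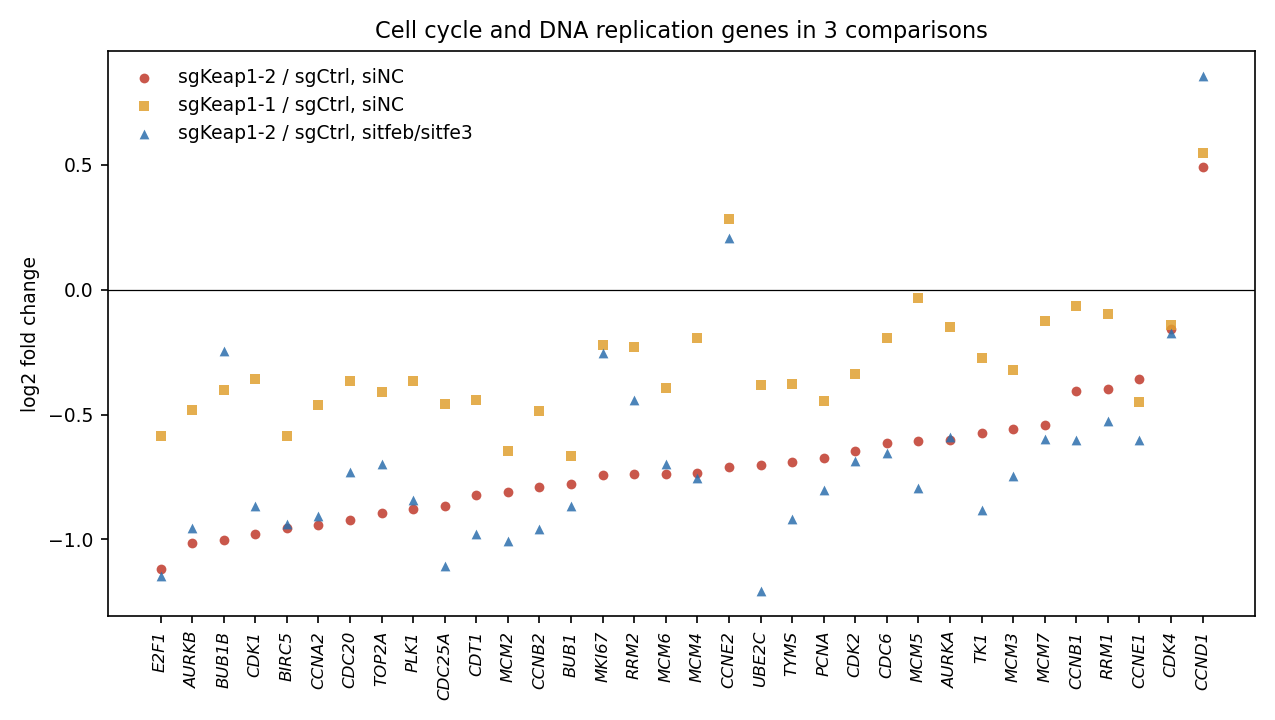
Each column is 1 of 34 cell cycle and DNA replication genes, ordered by its log2 fold change with sgKeap1-2 under siNC (red circles), beside sgKeap1-1 under siNC (orange squares, same sgCtrl libraries) and sgKeap1-2 under sitfeb/sitfe3 (blue triangles). In the red series 33 of 34 genes lie below 0, and the medians are -0.73, -0.36 and -0.75.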

How the data were processed

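RNA from HepG2 cells was measured by QuantSeq 3′ mRNA-Seq (single-end reads), and the authors deposited 1 table of raw read counts per gene for all libraries of the series. Per the submitters' processing notes the tools were FastQC 0.72, cutadapt 1.16, STAR 2.7.5b, featureCounts 1.6.3 and limma 3.40.6. The study's methods name hg19 and the notes hg38, and the setting of strand is not given in the sources used here. Gene positions are those of GENCODE for GRCh37, promoter sequences those of RefSeq for GRCh38.p14, and the coordinates of the 2 builds were not mixed.

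The table held 13446 rows. The 1414 rows without an ID (1.35% to 2.05% of reads in the 8 libraries) were left out, rows sharing an ID were summed, and IDs with identical counts in all libraries were taken as 1 feature. Genes were filtered with filterByExpr and scaled by TMM (edgeR 4.0.16), and limma-voom (limma 3.58.1, R 4.3.3) was fitted over the 24 libraries in 6 groups with Benjamini-Hochberg adjustment over all genes tested; a gene was called at an adjusted p under 0.05. Levels are CPM on TMM-scaled library sizes, and log2 fold changes use the voom prior count of 0.5. For genes at or under 3 counts in every library of a group (0.77 CPM) a lower bound of the fold is given. 3′ counts do not compare levels between genes. The steps were tested on simulated data.

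Alternatives were edgeR's quasi-likelihood test, DESeq2 1.42.0, other scaling and filters, library quality weights, the 8 libraries alone, a replicate block and each library left out. Genes were named by rule: KEAP1, NFE2L2, TFEB and TFE3, the 12 genes that rose and the 12 that fell most at a mean of at least 20 counts and without overlap, up to 3 called members a direction of each list, and the 2 genes of smallest p in the other contrasts. Other list members, NQO1, HMOX1, SPP1, LUCAT1 and AIFM2 were chosen after their values were seen, as were the list members named for an uncalled value. The comparison and the 35 gene lists were chosen with earlier results of these data known. The values of some genes are not reported here.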

Additional observations from a re-analysis of the deposited data

Results flagged for a closer look

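Within the 4 libraries of a group, 13 named genes had 1 library far from the other 3 by Dixon's test, out of 292 gene and group pairs, and this test picks out 5% of groups by chance. In sgCtrl replicate 1 the lowest values were 1892.5 CPM for TF (next 2558.4), 411.7 CPM for CTSB (next 518.5), 38.4 CPM for ELOVL6 (next 53.7) and 20.8 CPM for TGFA (next 22.6). In sgCtrl replicate 2 the highest values were 1.75 CPM for NOTCH3, 2.24 CPM for MAP2 and 6.23 CPM for DEFB1, genes near 0 in the other sgCtrl libraries. In sgCtrl replicate 3 the highest values were 4.02 CPM for CYP2S1 and 2.87 CPM for IGFBP3. In sgCtrl replicate 4 CREB3L3 was highest at 20.3 CPM (next 13.5), CYP4F11 highest at 8.96 CPM (next 4.83) and GPNMB lowest at 0.236 CPM (next 1.15). In sgKeap1-2 replicate 4 CYP24A1 was highest at 66.5 CPM (next 47.4). Among the rows without a gene ID, which no comparison above used, 20 of 917 tested were called between sgKeap1-2 and sgCtrl, 10 higher and 10 lower, or 2.18%.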

How the results depend on the processing

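Between sgKeap1-2 and sgCtrl under siNC, 845 genes rose and 796 fell; the corresponding numbers were 880 and 775 by edgeR, 967 and 864 by DESeq2, 849 and 793 with median-ratio size factors, 857 and 788 without a filter and 768 and 737 at a mean of at least 20 counts. With library quality weights 1220 fell and 2470 were called in all. Asking also for a log2 change of 1 or more in size, the numbers were 379 higher, 195 lower and 574 in all under siNC, and 474, 269 and 743 under sitfeb/sitfe3. Leaving out single libraries gave 645 to 889 higher, 522 to 783 lower and 1175 to 1672 in all under siNC. Leaving out replicate 1 of siNC; sgKeap1-1 and replicate 1 of sitfeb/sitfe3; sgKeap1-2, chosen after seeing the data, gave 1194 higher and 1114 lower under siNC and 1384 and 1237 under sitfeb/sitfe3. Between the guides edgeR called 2, both lower, DESeq2 9, of which 5 higher and 4 lower, quality weights 3 lower, and single libraries left out 0 to 1 lower. The labels give no shared batch or day for a replicate number beyond the unexplained prefixes. Same-numbered deviations correlated at 0.197, 0.0974, 0.0168 and -0.025, and numbers 1 and 2, but not 3 and 4, correlated best with their own number, so pairing was neither assumed nor dismissed; with a replicate block 970 rose and 932 fell, with the 8 libraries alone and a replicate block 1280 fell and 2540 were called in all, and between the guides the block called 2, both lower. The cause of these differences was not tested. The difference between the 2 effects of the guide called 0 genes under every alternative run for it. Of 146 named genes 112 stayed on one side of the threshold under the 18 alternatives, and none changed sign with a call.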
